A study of Rattus norvegicus with 18 samples.

Results

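The cytosolic ribosomal protein genes encode the protein part of the ribosome outside the mitochondria. Genes were taken by name, as those whose annotated symbol begins with Rpl or Rps and a digit, with Rpsa, Rplp0, Rplp1, and Rplp2 added and the Rps6k kinases left out. This gave 42 members of 4736 genes that a probe set of the array names alone, 28 of the large (60S) and 14 of the small (40S) ribosomal subunit. Each gene was read from 1 probe set, that with the highest mean signal over the 18 arrays, and 26 members had only 1 probe set. By their names 2 members were pseudogenes (Rps2-ps1 and Rps4x-ps9) and 3 were paralog-like genes (Rpl19l4, Rpl36al1, and Rps27l). Rpl3l, known as the form of Rpl3 of skeletal and heart muscle, was kept apart. Of the 42 members, 41 were bright enough to be tested. The exception was Rpl5, with a highest signal of 307. A further 38 probe sets carried several symbols, all of ribosomal protein loci, and were counted only as a group.

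mRNA expression was measured in the femur of intact female Sprague-Dawley rats. The rats were young, adult, or older, 6, 26, or 52 weeks old at fracture, and were sampled 3 days, 1 week, 2 weeks, 4 weeks, or 6 weeks after a closed fracture of the femoral shaft over an intramedullary rod, or as sham controls with no fracture. The tissue was the middle of the bone, with its marrow, cortical bone, and any callus. The arrays used here hold 1 array for every combination of age and time, on the pooled RNA of 2 rats. The study's methods describe further independent samples of each age and time, which were not analysed here. The 3 ages therefore served as the replicates of a time (n = 3 arrays) and the 5 times after fracture as the replicates of an age (n = 5 arrays), and no p-value given here covers the spread between rats of 1 age.

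Ribosomal proteins are made in matched amounts and are joined to ribosomal RNA in the nucleolus, so a cell that prepares to grow or to secrete protein usually makes more of all of them. Their mRNAs are among the most abundant of a cell. Most begin at a C followed by a run of pyrimidines, the terminal oligopyrimidine (TOP) tract, through which the TOR kinase pathway sets how far they are translated. Array signals measure mRNA level, not translation.

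Signals are in arbitrary intensity units that the authors scaled to the same average on every array, so each value is relative to the other genes of that array. Signals under a floor of 100 were set to 100 before log2, and 4669 probe sets were tested in all. Array medians were lowest for adult no fracture (137.2) and highest for older 4 weeks (182.6). RNA integrity, read as the 5-prime over 3-prime signal of Gapdh, gave 0.257 for young rats at 6 weeks and ranged from 0.650 to 0.913 elsewhere. In bulk tissue, fewer cells of a type and less RNA per cell cannot be told apart. The samples labelled as femur also held strong signals of skeletal muscle genes, with a summed signal of 22 such genes of 141070 to 392379 without fracture.

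The start of transcription was read from the RefSeq promoter table of the rat build GRCr8, in which 35 of the 42 members had an entry. Of these, 17 (48.6%) had a C followed by 4 or more C or T, beginning within 5 bases of the annotated start, against 17.0% of all 27457 promoters. The hexamer CTTTCC on the sense strand within 50 bases of the start was found in 15 of the 35 (42.9%) and in 4.55% of all promoters. The hexamer and the pyrimidine run can share letters. A stretch from 40 bases before the start to 20 bases into the transcript (the first exon) is shown for 11 genes that differ in this feature and in their response, with the pyrimidine run across the annotated start in capitals. The first 6 have such a run and were called higher at 3 days, and Rps23 and Rplp0 have it and were not called. Rpl24 and Rpl3l do not have it. Rpl3 begins with a short run whose first letter is T, not C, and does not meet the rule.
Rpl14 (chr8:129163580-129163639, plus strand): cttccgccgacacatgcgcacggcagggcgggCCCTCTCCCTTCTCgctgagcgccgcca
Rpl19 (chr10:83519024-83519083, plus strand): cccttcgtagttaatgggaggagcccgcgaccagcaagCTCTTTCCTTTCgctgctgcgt
Rpl31 (chr9:49143071-49143130, plus strand): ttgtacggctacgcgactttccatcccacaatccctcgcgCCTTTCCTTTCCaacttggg
Rpl35a (chr11:81235002-81235061, minus strand): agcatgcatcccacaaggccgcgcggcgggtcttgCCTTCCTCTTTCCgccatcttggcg
Rps10 (chr20:5700725-5700784, minus strand): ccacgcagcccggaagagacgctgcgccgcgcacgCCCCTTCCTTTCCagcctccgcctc
Rps15 (chr7:10068096-10068155, minus strand): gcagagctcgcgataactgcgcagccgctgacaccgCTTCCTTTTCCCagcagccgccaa
Rps23 (chr2:23814477-23814536, plus strand): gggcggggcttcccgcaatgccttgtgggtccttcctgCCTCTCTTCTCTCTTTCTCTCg
Rplp0 (chr12:46718371-46718430, minus strand): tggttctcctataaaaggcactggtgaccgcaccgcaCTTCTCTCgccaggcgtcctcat
Rpl24 (chr11:58128386-58128445, minus strand): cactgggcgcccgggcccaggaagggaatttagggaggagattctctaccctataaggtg
Rpl3 (chr7:113507971-113508030, minus strand): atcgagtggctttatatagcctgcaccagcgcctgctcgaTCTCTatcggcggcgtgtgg
Rpl3l (chr10:14258406-14258465, plus strand): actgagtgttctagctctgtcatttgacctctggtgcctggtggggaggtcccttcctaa

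The annotated start of Rpl31 is the first letter of its run, whereas the runs of the other genes that meet the rule begin before their annotated starts. Rpl24 has a purine at its annotated start. Other motifs were searched on both strands of the whole window, 250 bases before to 50 bases after the start. GGGCGG, the GC box, was found in 22 members (62.9%) against 34.9% of all promoters. CCGGAAG, the core of the sites of ETS factors, was found in 9 (25.7%) against 9.22%, and AAGATGGC, the core of YY1 sites, in 4 (11.4%) against 3.44%. TATAA was found in 6 (17.1%) against 26.1%. A match in the letters is a description and does not show that a factor binds there.

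**Figure D1:**
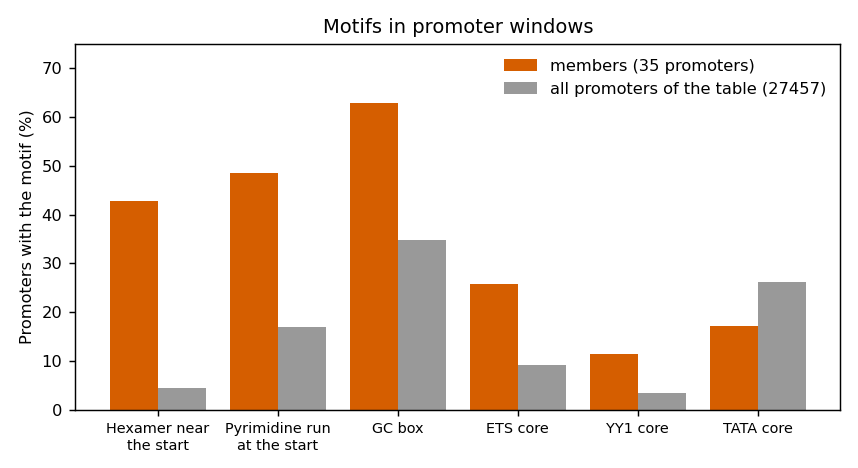
Share of promoters with each motif (y axis, %), for the 35 members with an entry (orange) and for all 27457 promoters of the table (grey). The pyrimidine run was present in 48.6% of members and 17.0% of all promoters, and the TATA core in 17.1% and 26.1%.

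At 3 days after fracture, mRNA expression of many ribosomal protein genes was higher than with no fracture. Of the 41 tested members, 20 were up-regulated (limma, adjusted p under 0.05), where 24.5% of all tested probe sets were up-regulated, and 1 was down-regulated, where 19.7% of all were. The log2 fold change was above 0 for 33 of the 41 members. Its median over members was 0.47, a 1.38-fold rise, against 0.01 over all probe sets. All 3 arrays of 3 days lay above all 3 arrays without fracture for 25 of 41 members and for 28.5% of all probe sets. The mean signal of a tested member over the 18 arrays had a median of 7650. Of the 35 members with a mean signal of 2000 or more, 19 were up-regulated, against 33.0% of all probe sets as bright.

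The members' mean level was higher at 3 days at each age. Averaged over the 41 members, with each gene centred on its own 18-array mean, the log2 level was 0.22 in young, 0.21 in adult, and 0.22 in older rats at 3 days. Without fracture it was -0.14, -0.21, and -0.07 in the same order. The 3 arrays of 3 days thus lay within 0.01 of each other and above the 3 arrays without fracture. The rise within an age was 0.35 in young, 0.42 in adult, and 0.28 in older rats, each from 1 pair of arrays, and the difference between ages was not tested. Against the array of the same age without fracture, 36 members were higher at 3 days in young, 34 in adult, and 32 in older rats, and 29 were higher at all 3 ages. These counts by age were not made over all probe sets. Together the members held 5.81% to 5.85% of the summed array signal at 3 days and 3.78% to 4.40% without fracture.

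**Figure D2:**
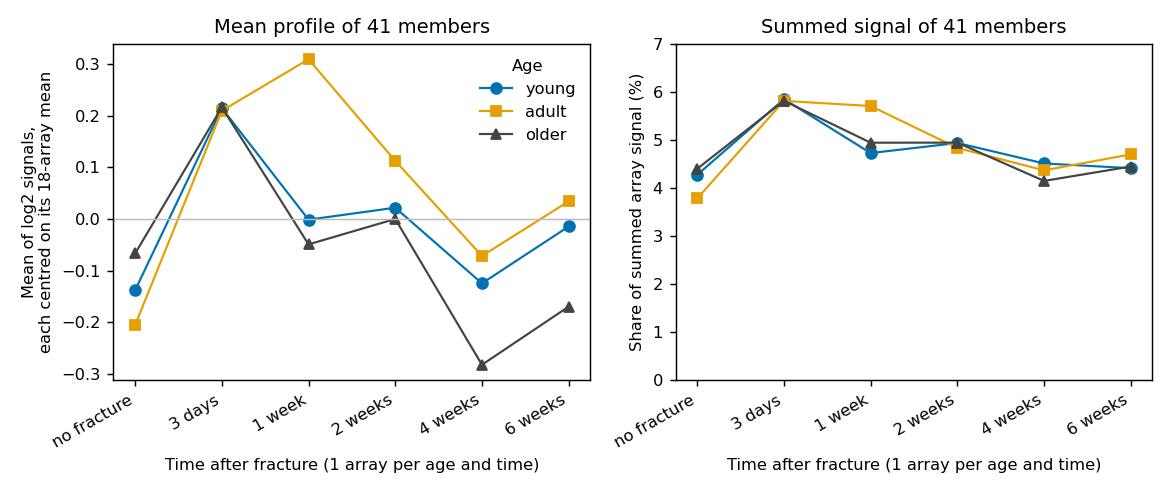
Left, the mean over 41 members of log2 signals centred on each gene's 18-array mean (y axis), by time (x axis) and age (colour and marker). Right, the members' share of the summed array signal (%). Each point is 1 array. The 3 ages met at 0.21 to 0.22 at 3 days and spread from -0.05 to 0.31 at 1 week.

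Among the genes that rose most, Rpl14, a large-subunit protein, had signals of 2275 in young, 1413 in adult, and 1532 in older rats without fracture. At 3 days they were 3900.1, 4710.2, and 4558. The groups did not overlap, and expression rose 2.57-fold (log2 1.36 ± 0.23 SE, adjusted p = 0.000275 by limma). Rpl14 kept its call under all 35 alternative settings in which it was tested. Some of these could not change its fit, such as taking only protein-coding members or the lowest probe set per member.

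Rpl3 lies close to the centre where peptide bonds are made. Its signals without fracture were 6432 in young, 4311 in adult, and 8478 in older rats, and at 3 days they were 14493, 12963, and 12278. Every 3-day value exceeded every value without fracture, and the change was 2.14-fold (log2 1.10 ± 0.26, limma adjusted p = 0.00311). The other probe set of Rpl3 gave a log2 fold change of 1.38.

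Rpl41, the smallest ribosomal protein, rose 1.97-fold (log2 0.98 ± 0.27). Its signals were 1803, 1038, and 2248 without fracture and 3212, 2865, and 3516 at 3 days, in the order young, adult, older. The groups were apart, with a low adult array among those without fracture. Rps4x-ps9, annotated as a pseudogene, rose 1.90-fold (log2 0.92 ± 0.29), from 3366, 2124, and 3717 to 5365, 5717, and 5923. Signal of such a probe set can come from the gene the copy was made from, and the array does not separate them. Rpl23, at the face of the large subunit that meets the small one, rose 1.83-fold (log2 0.87 ± 0.19), from 7915, 7718, and 7442 to 14425, 14455, and 13448. Its arrays within a time were close together and the times far apart. The other probe set of Rpl23 was also called at 3 days, with a smaller log2 fold change of 0.49.

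The other 15 members that rose had log2 fold changes from 0.38 (Rpl31) to 0.81 (Rpl13a). They were Rpl13a, Rpl35a, Rpl26, Rps27l, Rps9, Rpl6, Rpl18, Rpl19, Rpl11, Rpl36al1, Rpl4, Rps10, Rps15, Rpl35, and Rpl31. By subunit, 15 of 27 tested 60S members rose with a median log2 fold change of 0.51 over the 27. Of 14 members of the 40S subunit, 5 rose and 1 fell, with a median of 0.30. The share called higher was 24.5% over all probe sets and 48.8% over the 41 members. The difference between the subunits was not tested.

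**Figure D3:**
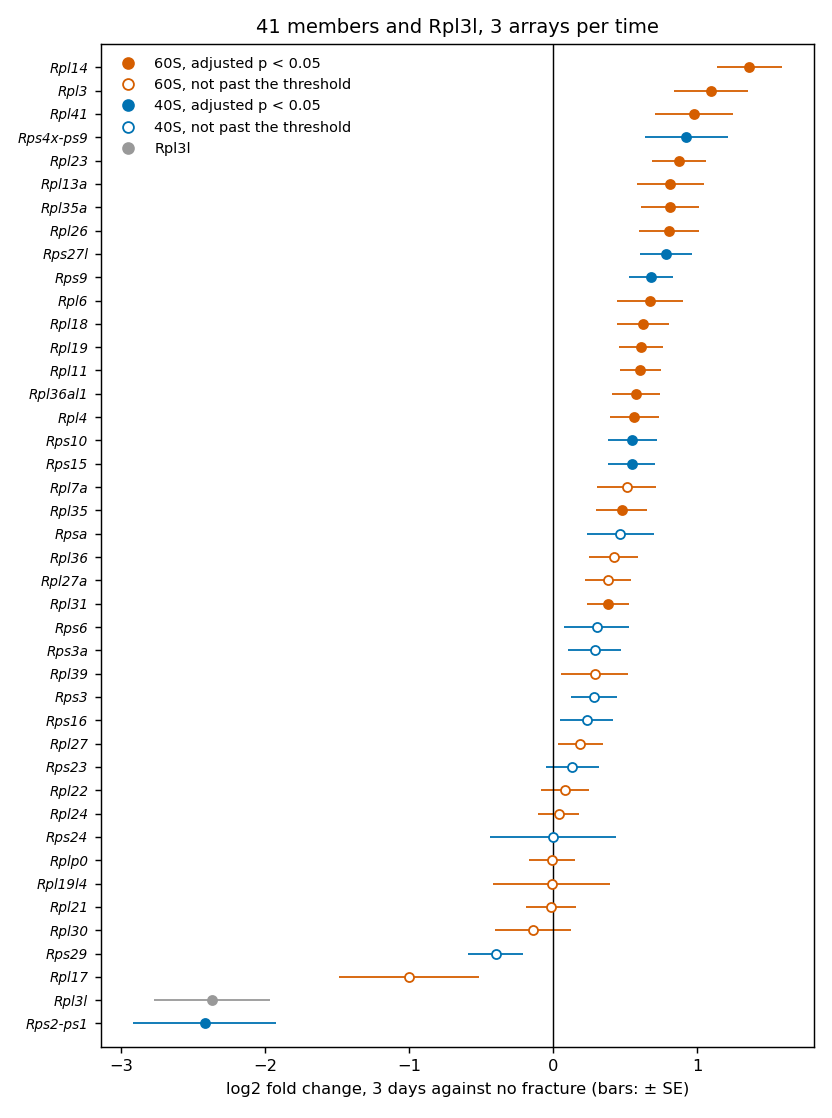
log2 fold change of 41 members and Rpl3l at 3 days against no fracture (x axis), with bars of ± 1 SE from limma. Filled points passed adjusted p under 0.05. Values ran from -2.42 for Rps2-ps1 to 1.36 for Rpl14, and 33 of the 41 members lay above 0.

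Members grouped by their role in the ribosome did not all rise, and their counts stand beside the 48.8% of all members and 24.5% of all probe sets called higher. The 5S particle, in which Rpl5 and Rpl11 bind the small 5S ribosomal RNA of the large subunit, was represented by Rpl11. Rpl11 rose 1.52-fold (log2 0.60 ± 0.14), from 7993, 7218, and 7410 to 11041, 11822, and 11508. The stalk that recruits elongation factors was represented by its base, Rplp0, with signals of 12994, 14502, and 13169 without fracture and 14806, 13397, and 12381 at 3 days. These values overlapped, and the log2 fold change was -0.00 ± 0.16. Of 7 tested members around the exit of the peptide tunnel, 4 rose, Rpl26, Rpl19, Rpl35, and Rpl31. The other members of that group, Rpl39, Rpl22, and Rpl17, had log2 fold changes of 0.29, 0.08, and -1.0 and did not pass the test.

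Inherited loss of some ribosomal protein genes causes Diamond-Blackfan anemia, a failure of red cell formation in the marrow. Of 10 tested members of that list, 7 rose, among them Rpl35a (log2 0.81 ± 0.20), Rpl26 (log2 0.80 ± 0.21), and Rpl18 (log2 0.62 ± 0.18). The other probe set of Rpl26 was also called, with a smaller log2 fold change of 0.46. Called higher were 48.8% of all tested members and 24.5% of all probe sets. In the same samples all 8 tested erythroid genes fell, and their summed signal was 77618 to 111662 without fracture and 8186 to 18653 at 3 days. The part of this fall of erythroid signal in the members' change was not tested.

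The 3 least variable members did not pass the test. Rpl24, which forms a bridge to the small subunit, had the smallest variation of all members (SD of log2 signal 0.11 over 18 arrays) and a log2 fold change of 0.04 ± 0.14 at 3 days. Rpl27 and Rpl21 came next with SDs of 0.13 and 0.15 and log2 fold changes of 0.19 and -0.02. Rps29, a zinc-binding protein of the small subunit, had signals of 27541, 32571, and 28620 without fracture and 22134, 22161, and 22859 at 3 days. All 3-day values were lower, but the log2 fold change of -0.40 ± 0.19 did not pass (limma adjusted p = 0.103). Rpl17, Rps24, and Rps2-ps1 varied most, with SDs of 0.89, 0.72, and 1.05. The median SD was 0.28 over the members and 0.47 over all probe sets.

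Probe sets of the same gene did not always agree in size. Of 15 members with more than 1 tested probe set, 8 were called at 3 days by all of their sets, 4 by none, and 3 (Rps3, Rps6, and Rpsa) by 1 of 2. In these 3 the brighter set, used here, was not called. For Rps3, at the mRNA entry of the small subunit, the sets gave 0.28 and 0.92, and for Rps6, the substrate of the S6 kinases, 0.30 and 0.75. The sets of Rps15 ran from -0.70 to 1.22 and all 3 were called, so its direction depends on the probe set. The 37 tested probe sets with several ribosomal symbols had 20 calls higher and 0 lower, with a median of 0.51.

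The pyrimidine run was as frequent among the calls as its absence. Of 17 tested members with the run, 9 were up-regulated, with a median log2 fold change of 0.38, and of 17 without it, 9 were up-regulated, with a median of 0.58. The share up-regulated was 48.8% over all tested members and 24.5% over all probe sets. Rpl14, Rpl19, Rpl31, Rpl35a, Rps10, and Rps15, whose start sites are printed above, rose, and Rps23 (log2 0.13 ± 0.18) and Rplp0 with like starts did not pass. Rpl3 rose without such a run. The grouping rests on the annotated start of each gene. Rpl13a, Rpl21, and Rps3, counted as without the run, have a pyrimidine run farther before that start. Neither group was tested against the other.

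The size of the count rests on few arrays. Without the adult no fracture array, 13 members were called at 3 days (12 higher), and without all adult arrays 5 (4 higher), as against 21 (20 higher) with all arrays. With only the 6 arrays of the 2 times 5 were called (3 higher), and without all older arrays 10 (9 higher). The median log2 fold change of the members was between 0.36 and 0.59 under all 37 alternatives.

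Rpl3l moved in the opposite direction to Rpl3. Its signals without fracture were 1677 in young, 4272 in adult, and 815 in older rats, and at 3 days they were 397, 320.4, and 334. All 3-day values were below all values without fracture, and expression fell 5.16-fold (log2 -2.37 ± 0.40, limma adjusted p = 0.000316). The other probe set gave -2.04. At 1, 2, 4, and 6 weeks its log2 fold changes of -0.72, -0.66, -0.35, and -0.28 did not pass the test. Over the 18 arrays the genes most like Rpl3l among 2844 others were Slc2a4 (r = 0.97), Pgm1, Pfkm, Cox8b, and Pygm (r = 0.96 each). Slc2a4 is the insulin-responsive glucose transporter of muscle and fat, and Pygm the glycogen phosphorylase of muscle. These correlations are descriptions over arrays that share their times and ages. Of 22 tested skeletal muscle genes, 19 fell and 1 rose at 3 days, and their summed signal was 68027 to 103881 there. Their part in the fall of Rpl3l was not tested.

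The elongation factor Eef1a, which brings aminoacyl-tRNA to the ribosome, has a general and a muscle and nerve form as well. The general form, Eef1a1, rose 1.65-fold at 3 days (log2 0.72 ± 0.21), from 6915, 3637, and 7878 to 9455, 8357, and 11194. The muscle and nerve form, Eef1a2, had signals of 6001, 9462, and 2219 without fracture and 2259, 1484, and 2689 at 3 days. It fell 2.41-fold (log2 -1.27 ± 0.37), although the value of older rats was not lower at 3 days.

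**Figure D4:**
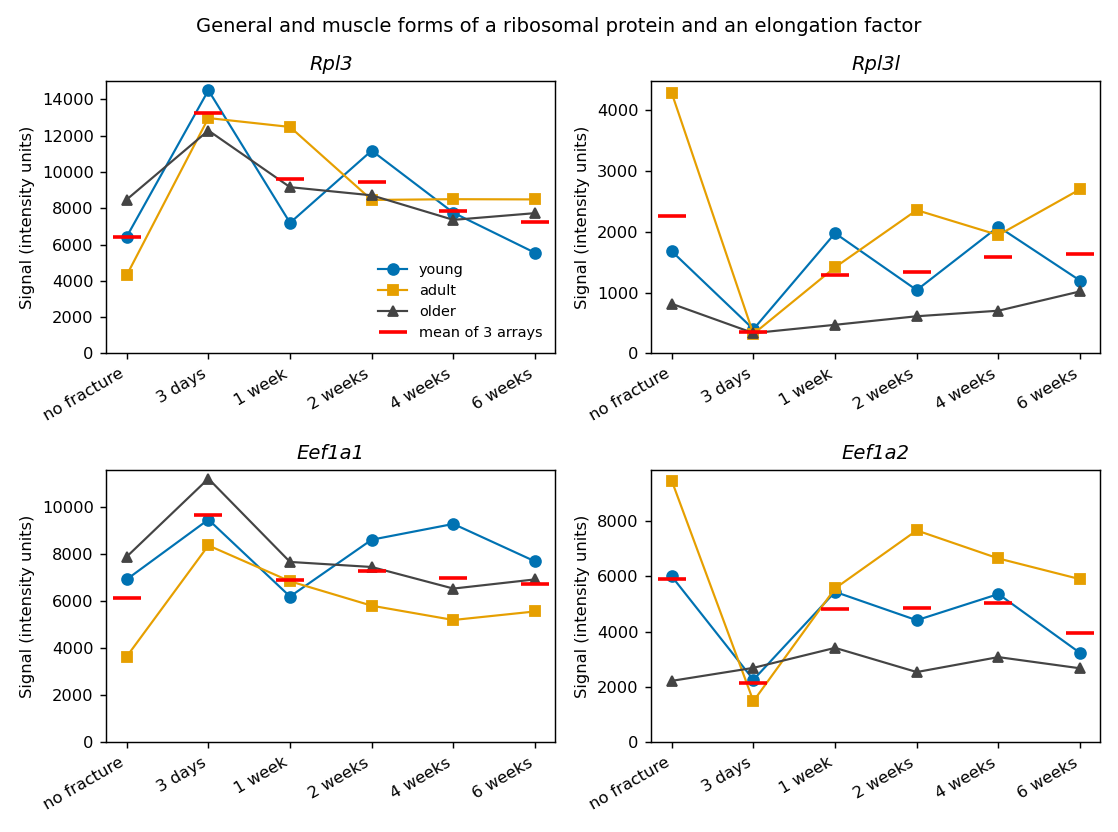
Signals (y axes, intensity units, from 0) of Rpl3, Rpl3l, Eef1a1, and Eef1a2 by time (x axes) and age (colour and marker). Each point is 1 array and red bars are means of 3 arrays. Rpl3 and Eef1a1 were highest at 3 days by their means and Rpl3l and Eef1a2 lowest.

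The 1 member that fell, Rps2-ps1, is annotated as a pseudogene of Rps2. Its signals were 319, 487, and 986 without fracture in young, adult, and older rats. At 3 days they were 27.4, 11.6, and 18.5 and at 1 week 28.4, 23.3, and 32.2, all under the floor, so that the fall at both times was at least 5.35-fold (log2 -2.42 ± 0.50). At 2 weeks its log2 fold change was -1.84 ± 0.50 (limma adjusted p = 0.0146). Signals were 224, 149, and 55.4 at 2 weeks, 220, 232, and 248 at 4 weeks, and 407, 517, and 65.9 at 6 weeks. Its profile had a correlation of -0.59 with the mean of the other members, the lowest of all.

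Most of the other members had profiles like the mean of the group. Such correlations were not computed within other groups of genes, and the arrays share their times, ages, and scaling. Over the 18 arrays, the correlation of a member with the mean of the others had a median of 0.64 and was highest for Rpl27a (r = 0.90), and 31 of 41 members were above 0.5. Outside the group, the genes closest to the members' mean were Dapk3, Rack1, Eno1, Elob, and Eif2b1, with r from 0.82 to 0.84. Rack1 is a protein of the small ribosomal subunit with a name of another kind, and Eif2b1 a subunit of the exchange factor for initiation factor eIF2. Rack1 had signals of 5040, 5153, and 5964 without fracture and 7988, 6710.4, and 6425 at 3 days. The groups did not overlap, but the log2 fold change of 0.38 ± 0.18 did not pass (limma adjusted p = 0.101). Rpl17, Rps24, and Rpl30, chosen after their values were seen, were more like each other than like the mean of the other members. Their pairwise correlations were 0.68 to 0.87, and those with that mean were -0.07, 0.10, and 0.19. They were dim, with mean signals of 534, 941, and 254. Each was highest on the adult 1 week array, with signals of 1241, 1982, and 426. That peak was not theirs alone, as 14 of the 41 members, these included, were highest on that array. The same count was not made over all probe sets. The Gapdh ratio of the adult 1 week array was 0.650, the lowest but for young 6 weeks (0.257). On the young 6 weeks array the signals of Rpl17, Rps24, and Rpl30 were 874, 1657.5, and 290. The part of RNA integrity in these values was not tested.

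**Figure D5:**
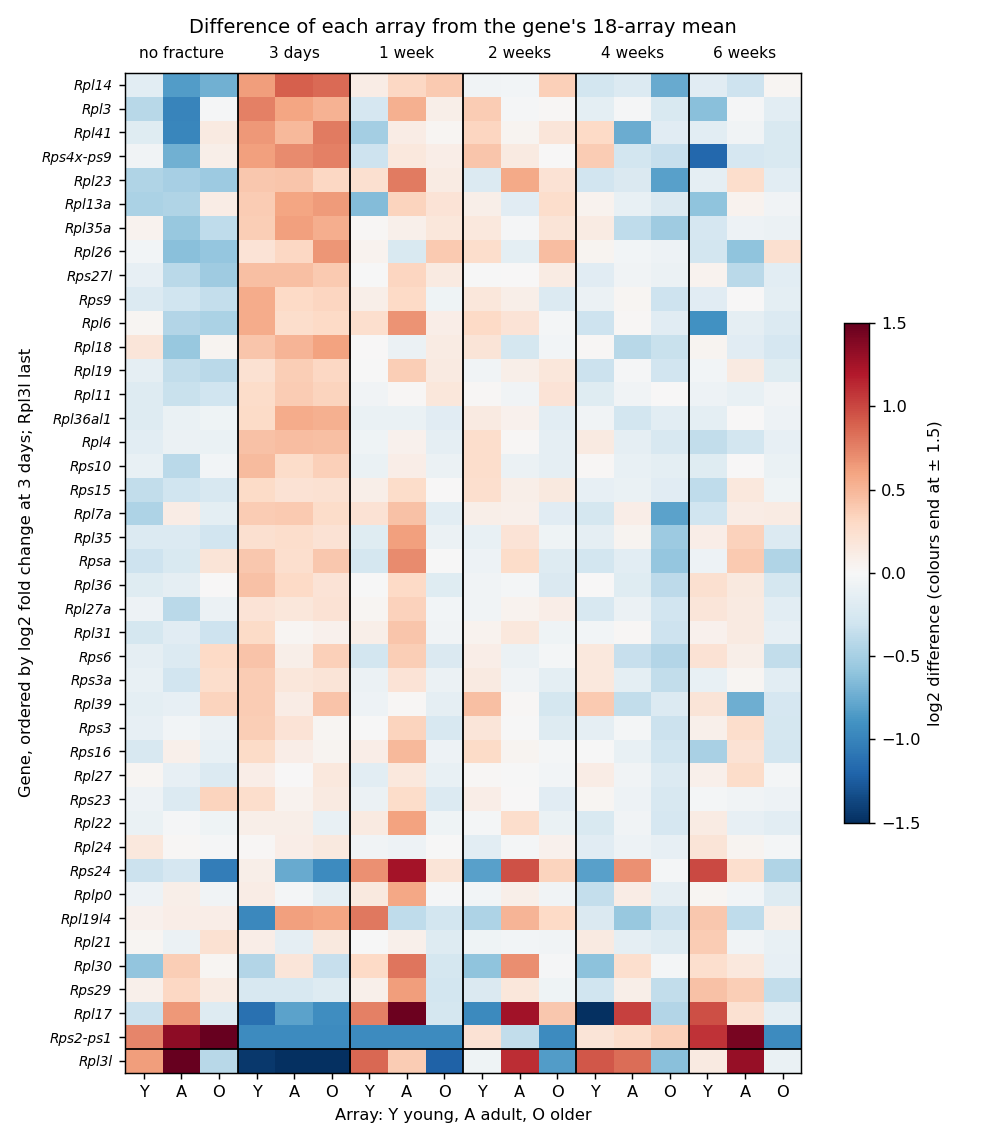
Difference of each array from the gene's 18-array mean of log2 signals (colour, ending at ± 1.5), for 41 members (rows, ordered by the change at 3 days) and Rpl3l (last row). Columns are the 18 arrays by time and age. The 3 arrays of 3 days are above the mean for most rows, and so is the adult 1 week array.

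Other genes of protein synthesis were read beside the members, and their counts stand beside the 24.5% of all probe sets called higher and 19.7% called lower at 3 days. The shares called higher among initiation factor genes and in the TOR list were below that, so that these lists did not stand out by their counts. Of 10 tested genes of ribosome assembly and the nucleolus, 5 rose at 3 days and 0 fell. They included Nop58, a core protein of the particles that methylate ribosomal RNA (log2 1.56 ± 0.22), Myc, a transcription factor that drives ribosome production (1.13 ± 0.29), Gnl3, a nucleolar GTPase (1.07 ± 0.27), and Ddx21, a nucleolar helicase (1.06 ± 0.30). Of 19 initiation factor genes, 4 rose, among them Eif2b1 (log2 1.44 ± 0.25), Eif3m (1.01 ± 0.28), and Eif2s1 (0.63 ± 0.20), and 1 fell, the helicase Eif4a2 (-0.90 ± 0.26). Of 5 elongation and release factor genes 2 rose, Eef1a1 and Eef1g (log2 0.95 ± 0.18), and 1 fell, Eef1a2. Of 7 other genes with TOP mRNAs 3 rose, led by Hnrnpa1, an RNA-binding protein (log2 1.55 ± 0.27). The others were Eef1a1 and Eef1g, which are in both lists and were counted among the elongation factors already. In the list of S6 kinases and the TOR pathway 1 of 6 rose, the kinase Akt1 (log2 0.55 ± 0.18). Of 13 mitochondrial ribosomal protein genes, which serve the separate ribosome of the mitochondria, 4 rose and 0 fell, led by Mrps6 (log2 1.00 ± 0.24).

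Markers of other cells and tissues moved at 3 days too. All 6 tested neutrophil genes fell, and 11 of 12 fibrous matrix genes rose, with a summed signal of 20735 to 77760 without fracture and 128316 to 152358 at 3 days. Of 5 tested bone matrix genes 4 rose and 1 fell, of 5 cartilage genes 3 rose, and of 5 macrophage genes 3 rose and 1 fell. Of 8 tested proliferation genes 1 rose, Ccnd1. Of 5 lymphocyte genes 2 fell. No list had a marker at 0 on these arrays. Their part in the members' change was not tested.

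At 1 week, fewer members differed from no fracture. Of 41 members 4 were up-regulated, where 14.3% of all probe sets were, and 1 was down-regulated, where 10.5% were. The median log2 fold change was 0.26. Rps24, a small-subunit protein, had signals of 671, 701, and 408 without fracture and 1349, 1982, and 955 at 1 week. The groups were apart, with a 2.37-fold rise (log2 1.25 ± 0.44, limma adjusted p = 0.0489), and at 3 days its log2 fold change had been -0.00 ± 0.44. The call of Rps24 at 1 week was lost under 21 of 35 alternatives. Rpl23 was 1.84-fold higher (log2 0.88 ± 0.19), with signals of 12868, 18594, and 11870. The other probe set of Rpl23 gave 1.17-fold (log2 0.23 ± 0.15) and did not pass (limma adjusted p = 0.296), so this call rests on the probe set chosen. Rpl14 was 1.79-fold higher (log2 0.84 ± 0.23) and Rpl19 1.38-fold (log2 0.47 ± 0.15). The ages had spread out. The mean log2 level of the members was 0.31 in adult, -0.00 in young, and -0.05 in older rats. Of the 41 members, 14 had their highest value of all 18 arrays on the adult 1 week array. The same count was not made over all probe sets. The Gapdh ratio of that array was 0.650, the lowest but for young 6 weeks (0.257), and the part of RNA integrity was not tested. Without the adult 1 week array 2 members were called, 1 of them higher. The count was also 2 without the adult no fracture or the older 1 week array, 3 without the older no fracture array, and 8 without the young 6 weeks array. Of 8 proliferation genes 6 fell and 1 rose at this time.

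At 2 weeks the log2 fold change was above 0 for 36 of 41 members, with a median of 0.19, but only Rpl23 (log2 0.69 ± 0.19) and Rpl26 (log2 0.61 ± 0.21) were called higher, where 12.8% of all probe sets were called higher, and Rps2-ps1 lower, where 8.27% were. Rpl23 had signals of 9386, 16092, and 12601, all above those without fracture. The other probe sets of Rpl23 (log2 0.27, limma adjusted p = 0.228) and Rpl26 (log2 0.23, limma adjusted p = 0.318) did not pass, so both calls rest on the probe set chosen, and that of Rpl26 was lost under 22 of 35 alternatives. Without the adult 2 weeks or the older 2 weeks array 0 were called, without the adult no fracture array 1, and without the young no fracture array 5. The mean level of the members was 0.02 in young, 0.11 in adult, and 0.00 in older rats.

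At 4 and 6 weeks 0 members were called by limma, with 1 member each below an unadjusted p of 0.05 (Rps2-ps1 at 4 weeks, Rpl23 at 6 weeks), where 19.9% and 19.8% of all probe sets were. By the methods' t-test 3 members at each time were below an unadjusted p of 0.05, where 10% and 6.92% of all were, and 0 after adjustment. Of all probe sets, 5.05% were called higher and 1.43% lower at 4 weeks, and 3.19% and 1.2% at 6 weeks. The median log2 fold changes were -0.02 and 0.10. By the mean of the 3 arrays, 29 of the 41 members were highest at 3 days, 9 at 1 week, 2 at 6 weeks, and 1 without fracture. The lowest time was no fracture for 17 and 4 weeks for 15. These counts of highest and lowest times were not made over all probe sets, so they do not show a trait particular to the members. All comparisons with no fracture share the same 3 control arrays.

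Older and young rats were compared over the 5 times after fracture. Of 41 members 0 were called in either direction by limma, where 0.0857% of all probe sets were called higher and 0.0643% lower in older rats. That background of 7 probe sets was not stable. It ran from 0 to 457 (without the older 3 days array) with 1 array left out, and was 42 with equal array medians. Below an unadjusted p of 0.05 were 3 members, where 20.8% of all probe sets were, and by the methods' t-test 1, where 9.4% of all were, and 0 after adjustment. The log2 difference of older minus young rats was below 0 for 27 members with a median of -0.09, but the median was 0.05 after quantile normalization and -0.21 with equal array medians. Rps3 (log2 -0.29 ± 0.12, adjusted p = 0.172 by limma) and Rpl36 (log2 -0.30 ± 0.12, limma adjusted p = 0.174) were lower in older rats at all 5 times without passing the test. The other probe set of Rps3 gave -0.03. In all, 5 members were lower at all 5 times (also Rpl22, Rpl31, and Rps23) and 1 was higher at all 5 (Rpl11). The share of all probe sets on the same side at all 5 times was not counted. Rpl3l had a log2 difference of -0.98 ± 0.30 (limma adjusted p = 0.0925), and of 22 skeletal muscle genes 1 was called lower.

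Against the array of the same age without fracture, fewer members were higher in older rats than in young or adult rats at each time after fracture. At 1 week 22 of 41 were higher in older, 30 in young, and 37 in adult rats, and at 2 weeks 23, 32, and 36. At 4 weeks the counts were 9, 25, and 27, and at 6 weeks 16, 28, and 33. All counts in older rats rest on the older no fracture array, on which the members' mean level (-0.07) was the highest of the 3 arrays without fracture. The difference between ages was not tested in these counts. The same counts were not made over all probe sets, so they do not show a trait particular to the members. The mean level of the members on the older 4 weeks array, -0.28, was the lowest of the 18, and 12 members had their lowest value there. That count was not made over all probe sets either. The highest median signals were those of the older 4 weeks array (182.6) and the older 6 weeks array (174.6). The part of the array medians in this difference was not tested. Without fracture, 25 of 41 members were higher in older than in young rats. The departure of the older against young difference after fracture from that without fracture had a median of -0.14, and 0 members were called by limma, where 1.58% of all probe sets were called higher and 0.964% lower, with 3 below an unadjusted p of 0.05, where 16.5% of all were. This comparison rests on 1 array per age without fracture.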

How the data were processed

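Femur RNA of 18 samples (3 ages at 6 times, 2 rats pooled in each) had been hybridized to Affymetrix rat arrays. Values are intensity units from Microarray Suite 5.0, which the authors had scaled to a common average of 500 before deposit. Symbols of the platform annotation were brought up to date by gene identifier (6994 of 8799 probe sets). The 308 probe sets with more than 1 symbol named no gene.

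Signals below 100, which were 37.2% to 43.3% of an array, were raised to 100 before log2, so fold changes near that floor are understated. After removal of 59 controls, a probe set needed 200 on 3 arrays or more, and 4669 remained. Times were compared with no fracture in limma 3.58.1 (in R 4.3.3, two-sided, with eBayes moderation by a mean trend) on 18 arrays with an age term. Older and young rats were compared on the 15 post-fracture arrays with a time term, and the departure from their difference without fracture on all 18. P-values were adjusted by the Benjamini-Hochberg method over the 4669 probe sets, with a threshold of 0.05. The members and lists were chosen with earlier results of these data known. Named were up to 5 called members with the highest and lowest change per comparison, the 3 most and the 3 least variable, role groups, Rpl3, Rpl3l, and up to 4 called genes of a list. The fits were tested on simulated data. Alternatives changed the floor, filter, scaling, moderation, probe set, model terms, and arrays used, and included the methods' t-test. Those that add probe sets of several symbols, take all probe sets of the members, or take only protein-coding members were chosen after seeing the data. Plots were made in matplotlib 3.10.9 (Python 3.11.15). The number of arrays limits the precision.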

Additional observations from a re-analysis of the deposited data

Results flagged for a closer look

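Of 138 groups of 5 arrays (the times after fracture of an age) tested with Dixon's ratio, 7 had 1 array far from the other 4, and chance flags about 1 in 20 groups. Of these, 5 were 3-day arrays that were high. In older rats at 3 days they were Rpl4 with a signal of 6461, Rpl36al1 with 2795, Rpl39 with 7222, and Rps10 with 5811, and in adult rats Rpl11 with 11822. Rplp0 was high in adult rats at 1 week, at 20384. Rps2-ps1 in older rats had a signal of 248 at 4 weeks and lay under the floor at the other times.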

How the results depend on the processing

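Arrays could not be paired by replicate number, because each age and time had 1 array. Times were matched within age by the age term, and without it 19 members were called at 3 days. Of 506 counts and medians recomputed under an alternative, 459 were unchanged within the limits set and 47 moved. The median log2 fold change of the members at 3 days (0.47) was 0.59 after quantile normalization and 0.53 without the older arrays. Members called at 3 days (21) were 5 with only the 6 arrays compared, 5 without the adult arrays, 10 without the older arrays, and 12 by the methods' t-test after adjustment. Counted as probe sets, 33 of the 59 tested probe sets of the members were called at 3 days, and 41 of 78 when the probe sets of several symbols were added to the members. All probe sets called at 3 days fell from 2062 to 1263 with only the 6 arrays and to 892 without the adult arrays. At 1 week (5 called), 9 were called with no filter, 8 with a filter at 500, 9 after quantile normalization, 8 of 78 with probe sets of several symbols added, 3 with equal array medians, 3 with no trend, 3 with no age term, 2 with only the 6 arrays, 2 without the older arrays, 1 without the adult arrays, and 0 by the t-test. At 2 weeks (3 called), 5 were called with a floor of 20, 5 with scaling to probe sets that are not of members, 6 after quantile normalization, 8 of 78 with probe sets of several symbols added, and 0 with only the 6 arrays, without the adult arrays, without the older arrays, or by the t-test. At 4 weeks 1 was called without the young arrays. The older minus young median (-0.09) was 0.0535 after quantile normalization and -0.210 with equal array medians, and the departure median (-0.14) was -0.0412 after quantile normalization, with 1 call at a floor of 200.

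With each array left out in turn, members called ranged from 13 to 23 at 3 days, 2 to 8 at 1 week, and 0 to 5 at 2 weeks, and were 0 at 4 and 6 weeks and between ages. Medians ranged from 0.36 to 0.55 at 3 days, 0.13 to 0.35 at 1 week, 0.13 to 0.26 at 2 weeks, -0.09 to 0.07 at 4 weeks, -0.00 to 0.19 at 6 weeks, -0.15 to -0.06 for older minus young rats, and -0.17 to -0.12 for the departure, which could not be fitted without a no fracture array. Equal array medians moved the median of all probe sets from 0.04 to -0.10 at 4 weeks and from 0.04 to -0.08 for older minus young rats, and the share of higher among all calls from 77.9% to 62.6% at 4 weeks and from 72.7% to 59.6% at 6 weeks. For older minus young rats that share was 57.1%, from only 4 higher and 3 lower calls. It was 40% after quantile normalization (2 higher, 3 lower) and 33.3% with equal array medians (14 higher, 28 lower). Named members kept their call in 868 of 1043 recomputations, lost it in 175, and reversed in 0. Some recomputations counted as kept could not change a member's fit, such as taking only protein-coding members. Rpl31 and Rpl35 lost theirs at 3 days in 24 and 17 of 35, Rps24 at 1 week in 21, and Rpl26 at 2 weeks in 22. The causes were not tested.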
